A study of Mus musculus with 6 samples.

Results

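The genes described here encode the heterogeneous nuclear ribonucleoproteins (hnRNPs) and the DDX and DHX RNA helicases. They were chosen by name alone, as every gene whose symbol starts with Hnrnp, or with Ddx or Dhx followed by a digit. Pseudogenes, Hnrnpll and Ddx3y were left out. The rule found 72 of the 54446 annotated genes, namely 19 Hnrnp, 36 Ddx and 17 Dhx genes. One Dhx name, Dhx58os, belongs to an antisense RNA and not to a helicase. Of these genes, 68 averaged 1 FPKM or more across the libraries and were tested (19 Hnrnp, 32 Ddx and 17 Dhx). FPKM is the number of fragments scaled to transcript length and library size. The germline helicases Ddx4, Ddx25 and Ddx43 and the antiviral factor Ddx60 were below that level.

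The libraries were made from total RNA of CD8+ T cells of wild-type C57BL/6 mice, 8 weeks old, purified from spleen with a negative selection kit. There were 2 libraries in each of 3 groups. Unstimulated cells were taken fresh. Control cells were stimulated for 72 h on plates coated with antibodies to CD3 and CD28, away from magnets, and SMF cells received the same antibodies for the same time in a static magnetic field of 0.3 T. The labels do not say whether the replicates came from different mice, so p-values measure only the spread between these libraries. Dates in the headers put replicate 1 of the unstimulated and control groups in a run of their own (run 1), replicate 2 of both groups in another (run 2), and both SMF libraries in a later run. The field and the run therefore cannot be told apart wherever SMF libraries are compared. Depth, as bases covered, was 67.4 and 132 Mb in unstimulated, 64.4 and 172 Mb in control, and 259 and 227 Mb in SMF libraries.

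hnRNP proteins coat nascent transcripts and steer splicing, export, stability and translation. DDX and DHX proteins use ATP to remodel RNA and its protein complexes, in the spliceosome, during assembly of ribosomal subunits, at initiation of translation and in the sensing of viral RNA. A resting T cell makes little RNA and protein, and activation switches on growth, division and the manufacture of ribosomes. The names of the helicase families come from a short run of residues in the ATP-binding core, the DEAD box and its variants. Read in frame along the longest annotated coding sequence of each gene (GENCODE M21), the codons for DEAD were found in 27 of 36 Ddx genes and the codons for DEAH in 8 of the 16 Dhx genes with a coding sequence. None of the 19 Hnrnp genes held either (0 of 19). The stretches around the box are shown for 6 helicases on which the results below turn, 5′ to 3′ on the coding strand, with the codons of the box in capitals.

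Ddx5 (DEAD, chr11:106785184-106785213, minus strand): cttgtccttGATGAAGCTGATaggatgctt

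Ddx21 (DEVD, chr10:62591872-62591901, minus strand): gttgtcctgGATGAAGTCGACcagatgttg

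Ddx39 (DECD, chr8:83721101-83721130, plus strand): tttgtgctaGATGAATGTGACaagatgctg

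Dhx15 (DEAH, chr5:52171487-52171516, minus strand): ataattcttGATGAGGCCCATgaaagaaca

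Dhx9 (DEIH, chr1:153468880-153468909, minus strand): gttattgtgGATGAAATTCATgaaagagat

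Dhx58 (DECH, chr11:100703229-100703258, minus strand): attgtggtgGACGAGTGTCACcacacccac

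All positions are on GRCm38. Every box searched for starts with aspartate and glutamate, so the first 2 codons agree by the choice of boxes. The last 2 differ between the 6 genes.

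CD8 T cell identity was checked first. Cd8a was listed at 92.5 and 105 FPKM in unstimulated, 35.5 and 60.0 FPKM in control and 192 and 186 FPKM in SMF libraries. Cd8a was called lower in control than in unstimulated cells and higher in SMF than in control cells. Cd8b1, the other CD8 chain, was at 143 and 271, 50.3 and 123, and 94.6 and 91.9 FPKM, called lower with stimulation and not called between SMF and control cells. Cd3e was at 88.7 and 88.4, 66.3 and 84.4, and 102 and 72.3 FPKM and was not called. Cd3d was at 82.5 and 73.4, 47.5 and 58.0, and 155 and 126 FPKM and was called higher between SMF and control cells, and Cd3g was not called. Between SMF and control cells 5 of 5 markers of the CD8 T cell list were positive and 2 were called, with a median log2 difference of 0.95. Over all genes tested 60.2% were positive and 12.5% were called higher, with a median of 0.32. All 5 CD8 T cell markers, Cd3e among them, were above 0 in every library, and Cd4 was at most 4.68 FPKM. Markers of other cells were concentrated in the unstimulated libraries. The myeloid gene Lyz2 was at 42.4 and 74.0 FPKM there and was listed at 0 in the other 4 libraries. Cd79a, the most abundant of the B cell list, was at 57.2 and 44.8 FPKM in unstimulated, 13.4 and 6.96 FPKM in control and 1.85 and 2.43 FPKM in SMF libraries. All 4 B cell markers were called lower in control than in unstimulated cells, where 12.6% of all genes tested were. Csf1r, a receptor of macrophages, was the most abundant of the myeloid list in the stimulated groups, at 53.8 FPKM in control replicate 2 against 63.9 FPKM in unstimulated replicate 2, and was not called. Cd14 was not found under that name, and of the erythroid list only Hba-a1 was found, at 2.77 FPKM in unstimulated replicate 2 and listed at 0 elsewhere. The NK cell gene Ncr1 was at 10.8 and 0.947 FPKM in unstimulated libraries and listed at 0 elsewhere. The part of these cells in the differences between unstimulated and stimulated libraries was not tested. In such bulk samples, fewer cells of a type and less RNA per cell cannot be told apart.

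The strand of the reads could bear on every value below. The kit keeps the strand of the RNA, and the authors' StringTie commands fixed a strand setting. Whether that setting suits the kit in every run is not known from the sources used here. Were it the opposite one, reads without a splice junction would be counted for genes on the other strand, and the values of spliced genes would rest mostly on reads across junctions. Across the genome, 53 single-exon genes lay wholly inside exons of a protein-coding gene of several exons on the opposite strand, with the host at a mean of at least 10 FPKM. The median ratio of the enclosed gene's FPKM to its host's was 3.47 and 3.54 in unstimulated, 2.92 and 3.14 in control, and 1.57 and 1.35 in SMF libraries. Enclosed genes thus stood above their hosts in the typical pair, and the ratio was lower in both SMF libraries than in the other 4. Of all FPKM, protein-coding genes held 69.2 and 68.7% in SMF libraries, against 49.1 and 50.5% in control and 49.3 and 49.7% in unstimulated libraries. The part of read strand in the differences between SMF and the other groups was not tested.

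The hnRNP family was the most abundant of the 3, and its sum was highest in the SMF libraries. The summed FPKM of the 19 Hnrnp genes was 1816 and 1718 in unstimulated, 2337 and 1860 in control, and 4105 and 3846 in SMF libraries. The 36 Ddx genes summed to 1458 and 1260 FPKM in unstimulated, 971 and 944 in control, and 1592 and 1552 in SMF libraries. The 17 Dhx genes gave 184 and 245, 176 and 278, and 447 and 435 FPKM in the same order. As a share of the FPKM of protein-coding genes, the Ddx genes held 0.615 and 0.509% in unstimulated, 0.368 and 0.343% in control and 0.471 and 0.456% in SMF libraries, so on that scale the unstimulated libraries were the highest. On the FPKM scale both SMF libraries lay above the other 4 in each family, and for the Ddx sum the control libraries lay below all others. A few genes carried each sum. By mean FPKM over the 6 libraries the leading hnRNP genes were Hnrnpa2b1 (482), Hnrnpa1 (285), Hnrnph1 (276), Hnrnpab (260), Hnrnpu (207) and Hnrnpk (135). Ddx5 (279) and Ddx39 (204) led the Ddx genes, followed by Ddx3x (93.0), Ddx17 (72.1), Ddx21 (65.8) and Ddx39b (54.6). The Dhx genes were lower, with Dhx15 (79.0) and Dhx9 (55.2) at the top.

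**Figure D1:**
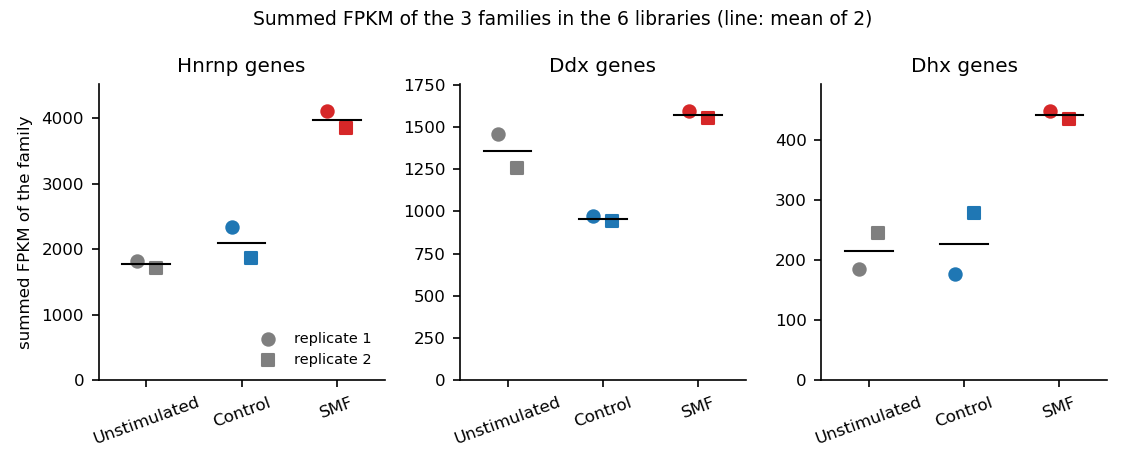
Summed FPKM of the Hnrnp, Ddx and Dhx genes (vertical axes, starting at 0) in the 2 libraries of each group, with circles for replicate 1, squares for replicate 2 and a line at the mean. Both SMF libraries lie above the rest in each panel, and the Ddx sum is lowest in the control libraries (971 and 944), whereas its share of protein-coding FPKM, not drawn, was highest in the unstimulated libraries (0.615 and 0.509%).

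The comparison of control with unstimulated cells asks what 72 h of stimulation did to these genes in the absence of a field. Some members were higher and others lower. A gene was called when its fold change was at least 2 with an unadjusted p of at most 0.05, the thresholds of the study, in limma on log2(FPKM + 1). By that rule 10 of the 68 genes tested were called higher, where 12.3% of all 14991 genes tested were, and 3 were called lower, where 12.6% of all genes were. The called-higher genes were Hnrnpab, Hnrnpr, Ddx1, Ddx10, Ddx19b, Ddx21, Ddx27, Ddx28, Ddx31 and Dhx58, and the called-lower genes were Ddx5, Ddx39 and Ddx55. Only Hnrnpab and Ddx31 also had a Benjamini-Hochberg adjusted p under 0.05 over all genes (2 of 68, both higher, against 4.52% of all genes in that direction), and none was lower by that measure (0 of 68 in limma, against 3.96%). The unadjusted p in limma, without the fold, was at most 0.05 for 16 of the 68. The share of all genes at that p alone was not computed, and with the fold it was 12.3% higher and 12.6% lower. For 21 members both control libraries lay above both unstimulated ones and for 12 below, where 24.8 and 26.6% of all genes did so. The median log2 difference was 0.30 for Hnrnp, 0.03 for Ddx and 0.05 for Dhx genes, beside -0.05 over all genes tested. Leaving out each library, the family medians ranged from 0.0495 to 0.45 (Hnrnp), -0.26 to 0.54 (Ddx) and -0.24 to 0.34 (Dhx). With gene TPM 6 members were called higher, where 1632 of the 14991 genes were, and with the protein-coding sum held equal 6 were, where 1622 were. Of the 13 calls between control and unstimulated cells, only 2 held under every alternative that tested them (Hnrnpab and Ddx1).

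Hnrnpab (chr11:51600100-51606847, minus strand), an A/B-type hnRNP that binds RNA through a pair of RNA recognition motifs, showed the clearest rise. It was listed at 50.4 and 65.2 FPKM in unstimulated, 166 and 228 in control and 506 and 544 in SMF libraries. The 3 groups did not overlap. The log2 difference between control and unstimulated cells was 1.75 (SE 0.26), with an adjusted p of 0.019 in limma with Benjamini-Hochberg adjustment. Within each run the difference was 1.70 and 1.79. Up to 809 bases of its exons face exons of Phykpl, an enzyme of hydroxylysine breakdown, on the opposite strand. Phykpl was listed at 60.2 and 1181 FPKM in unstimulated, 3362 and 3343 in control and 2821 and 3153 in SMF libraries, and the part of these reads in the value of Hnrnpab was not tested. The main Hnrnpab transcript has 245 of its 1437 bases facing Phykpl. Hnrnpr, an RNA-binding protein close to Syncrip, was at 18.7 and 8.98 FPKM in unstimulated, 35 and 39.2 in control, and 60.9 and 56.9 in SMF libraries. Both control libraries lay above both unstimulated ones, and its log2 difference with stimulation was 1.44 (SE 0.40). In the list of C, K, L, M and R proteins 5 of 5 had a positive difference, and only Hnrnpr was called (median 0.87), where 47.8% of all genes were positive and 12.3% called higher. In the F/H list 0 of 4 were positive and 0 were called (median -0.32). Hnrnpc was at 58.9 and 24.9 FPKM in unstimulated and 146 and 61.0 in control libraries, without passing the thresholds.

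Helicases that assemble ribosomal subunits made up 4 of the 7 Ddx genes called higher and 14 of the 32 Ddx genes tested. Of 16 such helicases tested, 4 were called higher and 1 lower (median 0.18), where 12.3 and 12.6% of all genes were. Ddx21, a nucleolar helicase of ribosomal RNA transcription and processing, was at 19.97 and 30.0 FPKM in unstimulated and 51.2 and 57.5 in control libraries. Its log2 difference was 1.11 (SE 0.30), and both control libraries lay above both unstimulated ones. Ddx27, which acts in the processing of the large-subunit ribosomal RNA, was at 16.6 and 15.95 FPKM in unstimulated and 31.9 and 39.0 in control libraries. Ddx10, a factor of small-subunit assembly, was at 8.79 and 20.1 FPKM before and 27.6 and 37.2 FPKM after stimulation. Ddx31, a nucleolar helicase, was listed at 0 in both unstimulated libraries and at 4.80 and 8.51 FPKM in control libraries, so no fold is given. It passed the filter on low values only through the stimulated groups, so its call carries no weight of its own. Most of that lay on a processed transcript of 903 bases, and the protein-coding transcript was at 0 and 1.71 FPKM in control libraries, so with protein-coding transcripts alone Ddx31 was not called. Ddx55, from the same list, moved the other way, from 17.0 and 10.9 FPKM in unstimulated to 5.31 and 4.84 in control libraries (log2 difference -1.27, SE 0.45). The list therefore did not move as a block.

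Ddx1, which takes part in the ligation of transfer RNAs and in transcription, was at 16.1 and 10.2 FPKM in unstimulated, 34.8 and 33.4 in control, and 80.6 and 76.5 in SMF libraries. The groups did not overlap, and the log2 difference with stimulation was 1.34 (SE 0.33). Ddx19b, a helicase that releases messenger RNA at the nuclear pore, and Ddx28, a helicase of mitochondrial ribosome assembly, were called higher as well. Ddx19b was at 2.42 and 2.13 FPKM in unstimulated and 8.02 and 4.84 in control libraries. With a replicate block in the limma fit it was no longer called (unadjusted p = 0.0637). The block splits the unstimulated and control libraries by run, but it was also fitted over the SMF pair, which shares a run. Ddx28 was at 4.37 and 0.763 FPKM in unstimulated and 10.5 and 8.83 in control libraries.

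The most abundant helicases of fresh cells, Ddx5 and Ddx39, were lower after stimulation. Ddx5, a cofactor of transcription and splicing also called p68, was at 421 and 429 FPKM in unstimulated, 238 and 119 in control, and 236 and 230 in SMF libraries. Every stimulated library lay below both unstimulated ones, and the log2 difference between control and unstimulated cells was -1.33 (SE 0.34). Its close relative Ddx17 was at 72.4 and 58.0 FPKM in unstimulated and 64.8 and 40.9 in control libraries, and was not called. Ddx39, a helicase of messenger RNA export, was at 411 and 239 FPKM in unstimulated, 142 and 152 in control and 110 and 170 in SMF libraries (log2 difference -1.09, SE 0.35). Without unstimulated replicate 1, Ddx5, Ddx39 and Ddx55 were no longer called, with log2 differences of -1.35, -0.70 and -0.97.

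The transcripts of Ddx39 did not change alike. The transcript annotated as a target of nonsense-mediated decay (3836 bases) was listed at 304 and 143 FPKM in unstimulated, 80.2 and 69.6 in control, and 18.1 and 48.4 in SMF libraries. Of its bases, 797 face exons of Adgre5, the gene of the leukocyte surface receptor CD97, which stood at 130 and 96.8, 32.7 and 64.7, and 89.1 and 87.5 FPKM in the same groups. A protein-coding transcript of the same length and the same facing stretch was at 76.0 and 0, 53.5 and 53.7, and 0 and 0 FPKM. With stimulation it was lower in run 1, as the first transcript was, and higher in run 2, where the first was lower. A retained-intron transcript of 754 bases, with 0 facing bases, was at 31.5 and 35.5, 5.62 and 2.21, and 1.06 and 5.66 FPKM. The shorter protein-coding transcript (1656 bases), of which 98 bases face Adgre5, was at 0 and 39.4, 0 and 19.9, and 84.9 and 113 FPKM. The short form was thus highest in the SMF libraries, where the nonsense-mediated decay form was lowest. With protein-coding transcripts alone, an alternative chosen after seeing the data, the log2 difference of Ddx39 between control and unstimulated cells turned to 0.19. Hnrnpu, a scaffold-attachment protein, had a similar pair. Its processed transcript of 2640 bases, 804 of which face the gene Cox20, was at 147 and 135 FPKM in unstimulated, 57.8 and 49.6 in control and 42.4 and 54.6 in SMF libraries. The protein-coding transcript, with 0 facing bases, was at 57.7 and 51.6, 76.98 and 88.9, and 166 and 136 FPKM. At the gene level Hnrnpu was at 216 and 230 FPKM in unstimulated, 138 and 166 in control and 232 and 259 in SMF libraries and was not called in any comparison.

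**Figure D2:**
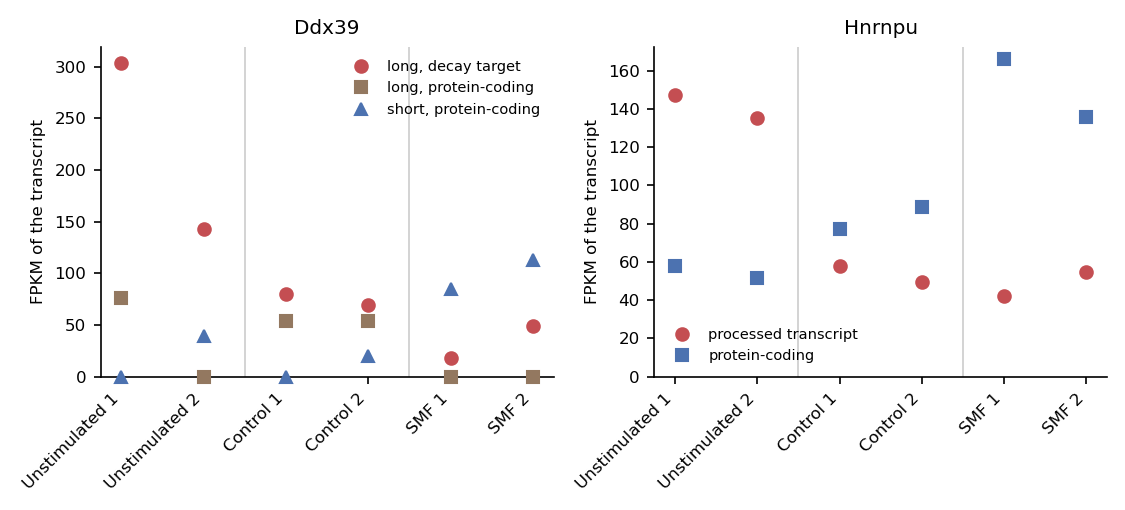
FPKM of the main transcripts of Ddx39 (left) and Hnrnpu (right) in each of the 6 libraries, with gray lines between the groups. The nonsense-mediated decay transcript of Ddx39 and the processed transcript of Hnrnpu are highest in the unstimulated libraries, and the short (Ddx39) or facing-free (Hnrnpu) protein-coding transcript is highest in the SMF libraries.

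More of the Hnrnp signal lay on protein-coding transcripts after stimulation. The share of the Hnrnp sum on transcripts annotated as protein-coding was 49.0 and 51.1% in unstimulated, 59.0 and 69.9% in control, and 70.9 and 71.7% in SMF libraries. For Ddx genes it was 59.2 and 52.4%, 70.8 and 69.7%, and 82.1 and 80.2%. For Dhx genes it was 72.3 and 64.1%, 73.9 and 68.0%, and 74.4 and 79.5%, and there the unstimulated and control libraries overlapped. The Dhx sum held the antisense RNA Dhx58os, which has no protein-coding transcript and so lowered these shares. It was at 15.3 and 14.0, 33.9 and 38.2, and 2.82 and 18.7 FPKM in the same order. Over all protein-coding genes tested the same share was 68.8 and 70.6%, 70.9 and 73.6%, and 78.6 and 77.8%. The Hnrnp sum therefore stood below the typical share in fresh cells, by more than the libraries of a group differed. Its leading genes differed, and the share without any of them was not computed. In unstimulated libraries the protein-coding share was 0.15 and 4.77% for Hnrnph1, 26.8 and 22.4% for Hnrnpu, and 100 and 100% for Hnrnpab. The low share is thus a value of the sum and not of each gene. For the Ddx genes Ddx39 carried much of the difference, and without it their share was 75.2 and 60.8% in unstimulated and 76.5 and 73.7% in control libraries, which overlapped. The main coding transcript of Hnrnpa1 (1737 bases) was at 14.5 and 61.5 FPKM in unstimulated, 0 and 129 in control and 340 and 395 in SMF libraries. The library at 0, control replicate 1, was also that of least depth, and the part of depth in this value was not tested.

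Dhx58 and Ddx58 are sensors of viral RNA, and the difference between them was not tested. Dhx58, also called LGP2, was listed at 0 in both unstimulated libraries, at 7.14 and 11.6 FPKM in control and at 2.49 and 28.8 FPKM in SMF libraries. It was called higher in control cells, and as for Ddx31 only the stimulated groups brought it past the filter. Dhx58os faces 141 of its bases and was above 0 in every library. Ddx58, also called RIG-I, was at 6.51 and 27.1 FPKM in unstimulated, 3.24 and 10.4 in control, and 1.43 and 9.06 in SMF libraries. It was not called, and in every group replicate 2 was the higher.

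Runs 1 and 2 each held 1 unstimulated and 1 control library, so the change can be read within each. Of the 68 genes, 29 were higher in control cells in both runs, 19 were lower in both, and 19 changed in opposite directions. The remaining gene, Dhx35, was listed at 0 in both libraries of run 1. Over all genes tested, 30.9% were higher in both runs and 32.5% lower in both. For Hnrnp genes 11 of 19 were higher in both runs and 4 lower, for Ddx genes 11 of 32 were higher and 13 lower, and for Dhx genes 7 of 17, the antisense RNA Dhx58os included, were higher and 2 lower. The differences between the families were not tested. The median change was 0.03 in run 1 and 0.37 in run 2. Control replicate 1, in run 1, had the least depth of the 6 libraries.

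**Figure D3:**
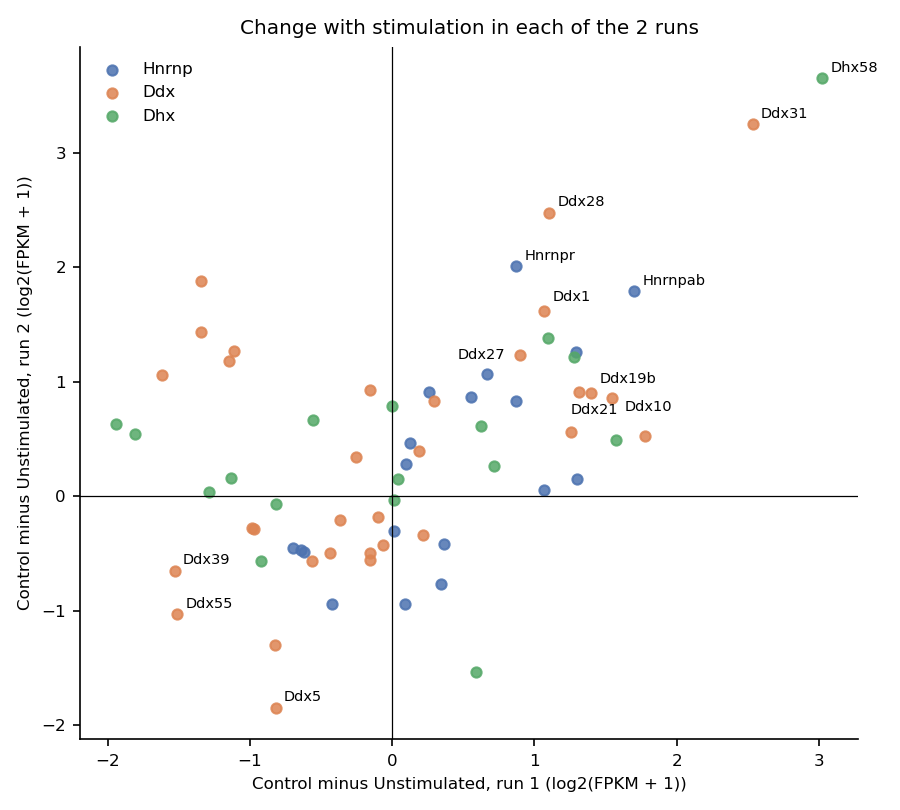
Difference of log2(FPKM + 1) between the control and the unstimulated library of run 1 (horizontal) and of run 2 (vertical), 1 point for each of the 68 genes tested, coloured by family; the genes called in the fit are named. The 13 named genes lie in the upper right or lower left quadrant, and 19 genes changed in opposite directions.

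Promoters were searched for CACGTG, the palindromic E-box bound by MYC and related factors, since MYC drives growth of activated T cells. In RefSeq windows on GRCm38.p6, from 250 bases before to 50 after the start site, 12 of the 64 genes with a window held it (18.8%). Among all windows of that length 7.15% held it. The share was 8.09% of all genes with a window and 11.9% of protein-coding genes tested with a window. The 12 include Ddx4 and Ddx25, which were not tested. None of the 9 genes with a window that were called higher with stimulation held it (0 of 9), and 1 of the 2 called lower did, namely Ddx5. Of those called higher in SMF cells, 6 of 21 held it against control and 5 of 33 against unstimulated cells. Dhx35 is in both counts of genes with the motif. It passed the filter on low values only through the SMF group, so its call carries no weight of its own. The difference between these shares was not tested. A match is a stretch of letters only, and no match says nothing about the factor. The 4 of these 6 genes with the motif upstream of the start site are shown, chosen to place the letters beside the genes that were called, on the gene's strand, with the motif in capitals.

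Hnrnpa3 (chr2:75659229-75659258): cggatagcacatCACGTGgtgactggcccc

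Hnrnpf (chr6:117907713-117907742): cgagcgggcgctCACGTGgcccgaggcgcc

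Dhx33 (chr11:71004450-71004479): ccagcacgcctgCACGTGgcgagaaagggg

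Dhx35 (chr2:158794655-158794684): gccgcgcggcatCACGTGggccaaggagag

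The comparison of SMF with control cells joins the field and the later run, which cannot be told apart. Most differences were positive in all 3 families. By the same thresholds 22 of 68 genes were called higher, where 12.5% of all genes tested were, and 1 was called lower, where 5.72% of all genes were. The 22 comprised 7 Hnrnp, 9 Ddx and 6 Dhx genes, and the gene called lower was Dhx58os. Among the 22 was Dhx35, which passed the filter on low values only through the SMF group, so its call carries no weight of its own. None had an adjusted p under 0.05 (0 of 68, limma with Benjamini-Hochberg adjustment). The unadjusted p in limma, without the fold, was at most 0.05 for 29 of the 68, and the share of all genes at that p alone was not computed. Over all genes tested 0.02% were higher and 0.00667% lower with an adjusted p under 0.05. The SMF libraries both exceeded the control libraries in 48 of the 68 genes, where 37.4% of all genes did so, and were both below in 3, where 17.4% of all genes were. The median log2 difference was 0.84 for Hnrnp, 0.80 for Ddx and 1.01 for Dhx genes. It was 0.32 over all genes tested, 0.58 over protein-coding genes of several exons, 0.00 over protein-coding genes of a single exon and -0.61 over the enclosed single-exon genes described above. The only single-exon genes among the members, Hnrnpa0 and Ddx28, had differences of -0.24 each. With the libraries shifted to a common median the count called higher was 11, and with the protein-coding sum held equal it was 12. The calls over all genes were 1868 higher and 857 lower as deposited, 877 and 1441 after the shift and 931 and 1307 with that sum held equal. Set against the median of all genes, the family medians lay 0.53 (Hnrnp), 0.48 (Ddx) and 0.69 (Dhx) higher as deposited and 0.45, 0.41 and 0.63 higher with the sum held equal. With protein-coding transcripts alone the Hnrnp median lay 0.08 above that of all genes, and without control replicate 1 the Dhx median lay 0.17 above it. The count of members called higher also changed with the library left out. Without SMF replicate 1 it was 10, where 841 of all genes were called higher, with the remaining SMF library taken to vary like the other groups, and Dhx58os was no longer called without SMF replicate 1, control replicate 1 or either unstimulated library.

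Among the hnRNPs, 4 of 7 genes of the A/B and D list were called higher (median 1.11), where 12.5% of all genes were (median 0.32). Hnrnpa1 (chr15:103240432-103246692), a repressor of exon inclusion, was at 112 and 122 FPKM in unstimulated, 204 and 218 in control and 504 and 548 in SMF libraries. The groups did not overlap, and the log2 difference between SMF and control cells was 1.31 (SE 0.21). Hnrnpa2b1, which binds exported and transported RNAs, was at 320 and 384, 412 and 288, and 806 and 684 FPKM in the same order, with a log2 difference of 1.11 (SE 0.25). For this gene the unstimulated and control libraries overlapped, and only the SMF libraries stood apart. Hnrnpab differed by 1.43 (SE 0.26) between SMF and control cells.

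The smaller hnRNP genes Hnrnpa3 and Hnrnph2 were called as well. Hnrnpa3 was at 22.2 and 25.1 FPKM in unstimulated, 16.3 and 12.6 in control and 43.6 and 34.6 in SMF libraries. Of this, a retained-intron transcript of 596 bases took 9.69 and 8.26, 10.6 and 8.17, and 34.3 and 27.7 FPKM, and with protein-coding transcripts alone Hnrnpa3 differed by 0.58 between SMF and control cells and was not called. Hnrnph2, an F/H-type protein that binds runs of G, was at 14.4 and 11.7, 8.46 and 8.29, and 42.9 and 35.1 FPKM, with a log2 difference of 2.09 (SE 0.34), the largest of the family. In both genes the control libraries were the lowest of the 6. Hnrnpf, its relative, was at 73.9 and 76.0 FPKM in unstimulated, 74.4 and 61.5 in control and 179 and 177 in SMF libraries (log2 difference 1.39, SE 0.24). Exons of 2 unconfirmed transcripts face Hnrnpf on the opposite strand, at means of 284 and 262 FPKM. Hnrnpm, a splicing regulator, was at 59.4 and 67.0, 126 and 69.8, and 268 and 201 FPKM. Hnrnph1 was not called, at 317 and 253 FPKM in unstimulated, 337 and 131 in control and 340 and 274 in SMF libraries.

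In each of the 10 helicases of the spliceosome the SMF libraries both exceeded the control ones, and 4 were called higher (median 1.18), where 37.4% of all genes had both libraries above and 12.5% were called higher. Dhx15, which takes the spliceosome apart after splicing, was at 51.8 and 64.4 FPKM in unstimulated, 29.0 and 61.4 in control, and 153 and 114 in SMF libraries (log2 difference 1.62, SE 0.41). Ddx46, a helicase of early spliceosome assembly, was at 19.6 and 24.9, 14.2 and 17.4, and 52.7 and 46.0 FPKM (log2 difference 1.59, SE 0.32). With stimulation 0 of 10 were called higher, where 12.3% of all genes were, and 0 lower, where 12.6% were (median -0.23). Dhx35 was listed at 0 in unstimulated and control replicate 1 and at 4.32 and 5.07 FPKM in SMF libraries. It passed the filter on low values only through the SMF group, so its call, 1 of the 4, carries no weight of its own. Ddx39b, which recruits the U2 particle and loads export factors, was at 49.5 and 68.8, 33.2 and 46.1, and 78.2 and 51.6 FPKM and was not called.

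Of the 16 helicases of ribosome assembly, 5 were called higher and 0 lower (median 0.75), where 12.5 and 5.72% of all genes were (median 0.32). Ddx21 was at 121 and 115 FPKM in SMF libraries, above both control libraries, with a log2 difference of 1.11 (SE 0.30). Ddx51 was at 1.03 and 3.70 FPKM in unstimulated, 1.35 and 2.72 in control and 15.9 and 8.94 in SMF libraries. Its difference was 2.13 (SE 0.64), but 11.5 FPKM of SMF replicate 1 lay on a retained-intron transcript listed at 0 in the other 5 libraries, and with protein-coding transcripts alone the difference was 1.08 and was not called. Hnrnpa1, Ddx56 and Dhx38 also lost the call between SMF and control cells on that basis, with differences of 4.98, 1.69 and 1.42. Ddx56, a nucleolar helicase, was at 7.67 and 3.15, 3.003 and 8.99, and 22.2 and 22.3 FPKM. Dhx33, a nucleolar helicase, was at 5.97 and 6.27, 2.67 and 3.91, and 15.0 and 11.3 FPKM, with a log2 difference of 1.72 (SE 0.44). Ddx18, from the same list, was at 18.7 and 26.4 FPKM in control and 48.7 and 48.9 FPKM in SMF libraries and did not pass the thresholds.

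Ddx3x (chrX:13280970-13294052), which helps ribosomes scan structured leaders of messenger RNAs, was at 55.7 and 74.0 FPKM in unstimulated, 53.4 and 54.98 in control, and 168 and 152 in SMF libraries. The SMF libraries lay above the other 4, and both control libraries lay just below both unstimulated ones, with a log2 difference of 1.54 (SE 0.26) between SMF and control cells. Dhx9, which unwinds RNA in transcription complexes, was at 21.2 and 36.5, 35.4 and 44.2, and 93.2 and 101 FPKM (log2 difference 1.27, SE 0.35). Ddx6, a helicase of messenger RNA decay and storage, was at 41.1 and 29.1, 36.7 and 19.5, and 32.0 and 27.8 FPKM and was not called. Dhx36, which unwinds quadruplexes, was at 18.1 and 18.3, 6.82 and 18.8, and 16.1 and 14.6 FPKM, and was not called either. Ddx19a, a paralog of Ddx19b at the nuclear pore, was at 7.71 and 4.59, 2.43 and 14.2, and 34.1 and 26.3 FPKM and was called. Near-identical stretches of the paralogs may share reads, so their separate values are uncertain.

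**Figure D4:**
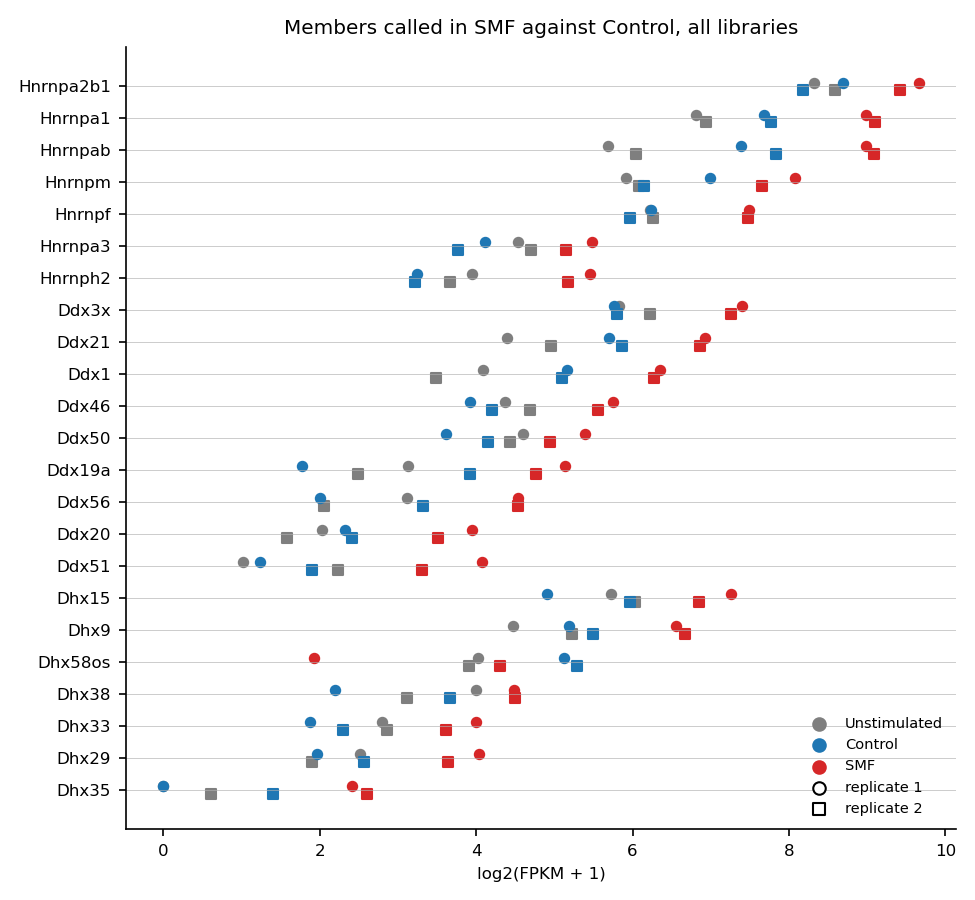
Level as log2(FPKM + 1) in each of the 6 libraries for the 23 genes called between SMF and control cells, ordered by family and mean. For 22 genes both SMF libraries (red) lie to the right of both control libraries (blue), and for Dhx58os, the antisense RNA, they lie to the left.

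The members that face no exon on the opposite strand and have several exons were counted apart. Of these 47 genes, 20 were called higher and 0 lower between SMF and control cells (median 1.01). Among all protein-coding genes tested of that kind, 18.4% were called higher and 1.13% lower (median 0.71). Of the other 21, 2 were called higher and 1 lower (median 0.58), where 11.4 and 5.09% of such protein-coding genes were (median 0.27). The difference between the split counts was not tested. Dhx35 is among the 20 called higher of the 47, and its call carries no weight of its own, as given above. For control against unstimulated cells the counts were 6 higher and 2 lower of 47, and 4 higher and 1 lower of 21, beside 14.0 and 10.8%, and 12.8 and 12.1%, of protein-coding genes. The antisense RNA Dhx58os was at 15.3 and 14.0 FPKM in unstimulated, 33.9 and 38.2 in control, and 2.82 and 18.7 in SMF libraries. Other members with strong neighbours included Hnrnpd, whose exons face 385 bases of the antisense gene Gm17092. Hnrnpd was at 82.2 and 66.4 FPKM in unstimulated, 89.7 and 92.4 in control and 180 and 181 in SMF libraries, and Gm17092 stood at 1536 and 783, 3331 and 1581, and 824 and 1122 FPKM.

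**Figure D5:**
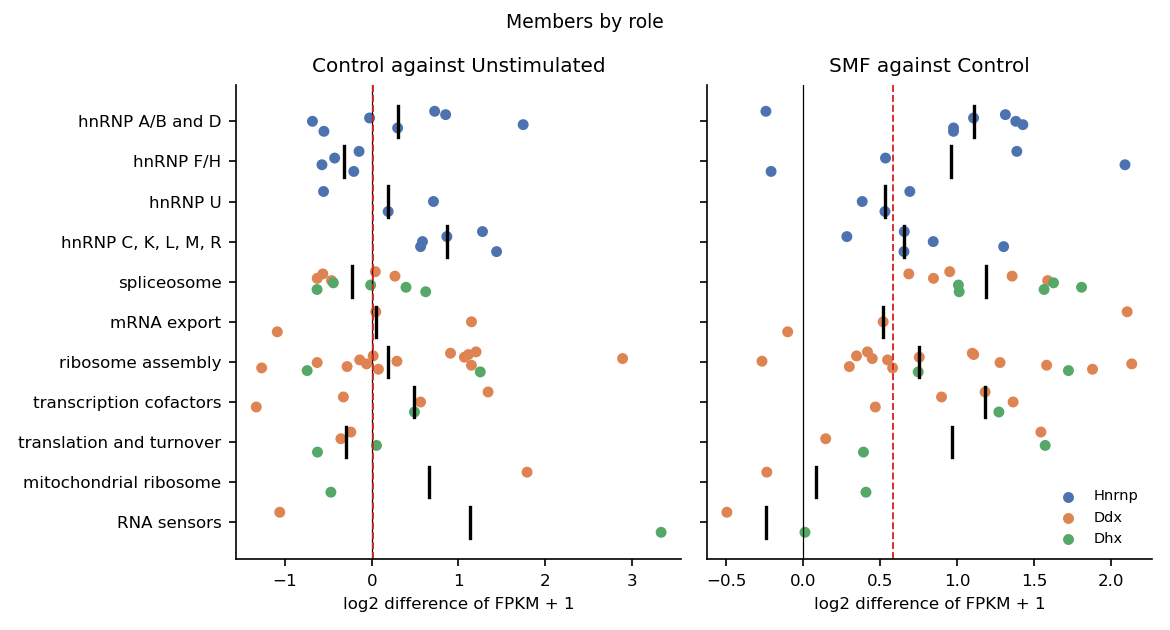
Log2 differences of FPKM + 1 for members grouped by role, control against unstimulated (left) and SMF against control (right), 1 point for each gene coloured by family, with a black bar at the list's median. The dashed line is the median of protein-coding genes of several exons (0.01 and 0.58); the spliceosome list has a median left of 0 in the left panel (-0.23) and entirely right of the dashed line in the right panel (median 1.18).

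The comparison of SMF with unstimulated cells joins stimulation, field and run, and it shares its libraries with both comparisons above. These in turn share the control libraries. Of the 68 genes, 34 were called higher, where 22.4% of all genes tested were, and 1 was called lower, where 14.8% of all genes were. Among the 34 were Ddx31, Dhx35, Dhx37 and Dhx58, which passed the filter on low values only through the stimulated groups. Their calls carry no weight of their own. An adjusted p under 0.05 was reached by 21 members, all higher, where 14.2% of all genes reached it in that direction and 9.4% in the other. Ddx31 was among the 21. Both SMF libraries exceeded both unstimulated ones in 52 members and lay below in 4, where 39.7 and 26% of all genes did so. By family the adjusted calls were 11 Hnrnp, 9 Ddx and 1 Dhx gene. The median log2 difference was 1.15 for Hnrnp, 1.06 for Ddx and 0.98 for Dhx genes, beside 0.62 for protein-coding genes of several exons. Without SMF replicate 1, 20 members were called higher, where 2291 of all genes were and 1614 were lower. With the protein-coding sum held equal 20 members were called higher, where 2347 of all genes were and 2978 were lower, against 3351 and 2226 as deposited. Hnrnpab had the largest difference among members above 0 in every library, 3.17 (SE 0.26, limma, Benjamini-Hochberg adjusted p = 0.00338). Ddx1 differed by 2.52 (SE 0.33), Ddx21 by 2.22 (SE 0.30) and Hnrnpa1 by 2.16 (SE 0.21). All 5 of the C, K, L, M and R list were called higher (median 1.86). Ddx52, a helicase of small-subunit assembly, was at 0.807 and 11.4 FPKM in unstimulated and 31.4 and 29.4 in SMF libraries. Ddx39 was the single member called lower, with a log2 difference of -1.19 (SE 0.35), and its transcripts differed as given above. It was no longer called without SMF replicate 1.

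Relatives outside the naming rule were read for comparison. Of 12 other hnRNP-type proteins, 1 was called higher with stimulation (Elavl1), 5 were called higher between SMF and control cells (Pcbp1, Pcbp2, Syncrip, Rbmx and Tardbp), and 0 were called lower in either. Over all genes tested 12.3% were called higher with stimulation and 12.5% between SMF and control cells. Syncrip, an RNA-binding protein of translation control, was at 17.4 and 11.4 FPKM in unstimulated, 18.7 and 26.9 in control and 73.0 and 67.5 in SMF libraries. Pcbp1, a poly(C)-binding protein whose gene has a single exon, was at 41.8 and 27.6, 73.8 and 49.4, and 156 and 131 FPKM. Over the 256 protein-coding genes of a single exon the median difference between SMF and control cells was 0.00. The part of read strand in the value of Pcbp1 was not tested. Of 16 other RNA helicases, 1 was called higher and 2 lower with stimulation, and 5 were called higher, Eif4a1 among them, and 0 lower between SMF and control cells. The shares over all genes were 12.3% higher and 12.6% lower with stimulation and 12.5 and 5.72% between SMF and control cells.

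The translation initiation helicases moved in opposite directions with stimulation. Eif4a1, the main helicase of cap-dependent initiation, was at 122 and 141 FPKM in unstimulated, 284 and 249 in control and 731 and 786 in SMF libraries. Its paralog Eif4a2 was at 205 and 211 FPKM in unstimulated, 99.6 and 81.0 in control and 142 and 181 in SMF libraries. The log2 difference between control and unstimulated cells was 1.02 (SE 0.21, adjusted p = 0.0384) for Eif4a1 and -1.20 (SE 0.25, adjusted p = 0.0393) for Eif4a2, in limma with Benjamini-Hochberg adjustment. In fresh cells Eif4a2 was the higher of the pair, and in control libraries Eif4a1 was. Ythdc2, a helicase that reads methylated RNA, was the other gene called lower, at 8.44 and 10.03 FPKM in unstimulated and 2.27 and 2.13 FPKM in control libraries.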

How the data were processed

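Total RNA of CD8+ T cells was sequenced with a stranded kit, in 2 libraries for each of 3 groups. The submitters' processing notes name Trimmomatic 0.36, HISAT2 and mm10. The authors deposited 1 StringTie 1.3.5 file per library (GRCm38, GENCODE M19, annotated transcripts only), with FPKM and TPM, normalized for library size and length, and coverage, the mean reads per base. A gene table whose 3 value columns carry names of no sample here was not used. Read counts were not used here, so depth is given as coverage times length and no counting interval is given.

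FPKM was summed per gene. The 14991 of 54446 genes averaging 1 FPKM or more were fitted as log2(FPKM + 1) with limma 3.58.1 in R 4.3.3, the 3 groups together, with a variance trend and 3 residual degrees of freedom. A fold change of at least 2 with an unadjusted p of at most 0.05 was called, and Benjamini-Hochberg values cover all genes tested. Fold changes on this scale understate those of low genes. The procedure was tested on simulated data. Gene types and coding sequences came from GENCODE M21, which matched 54409 gene identifiers, and exons facing each other were found with bedtools 2.31.1.

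The members and lists were chosen with earlier results of these data known. Genes named were drawn from the 6 most abundant of each family, the 4 largest rises and falls called per comparison, members with an adjusted p under 0.05, a list of well-known members, and called members of the role lists. Not every gene of these kinds is described. Those left out include Dhx30, Dhx32, Hnrnpl, Hnrnpul1 and Ddx20. The marker genes Cd3e and Cd4, the single-exon gene Hnrnpa0 and the facing genes (Phykpl, Adgre5, Cox20 and Gm17092) were outside this rule and were named after their values were seen. The comparison of transcripts in Ddx39, Hnrnpu and Hnrnpa1, the counts by facing exons and the E-box search were chosen after values were seen. Alternatives were another pseudocount, other filters and scalings, gene TPM, no variance trend, a replicate block and leaving out each library; protein-coding transcripts alone were added after seeing the data. Values of some list genes are not reported here.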

Additional observations from a re-analysis of the deposited data

How the results depend on the processing

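Depth is known only as covered bases, so a listing at 0 carries no limit. Of the calls, 2 of 13 between control and unstimulated cells (Hnrnpab and Ddx1), 5 of 23 between SMF and control cells (Hnrnpab, Hnrnpf, Hnrnph2, Ddx3x and Ddx46) and 12 of 35 between SMF and unstimulated cells held under every alternative that tested them. The 12 include Ddx31 and Dhx37, which passed the filter on low values only through the stimulated groups, so their calls carry no weight of their own. The causes of the changes below were not tested.

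With the libraries shifted to a common median, 11 members were called higher between SMF and control cells, and the medians were 0.50 (Hnrnp) and 0.46 (Ddx). Between SMF and unstimulated cells 2 were then called lower, with medians of 0.90 and 0.80. With the protein-coding sum held equal, 6, 12 and 20 members were called higher in the 3 comparisons and 3 lower between SMF and unstimulated cells. The medians were -0.12 (Ddx) with stimulation, 0.51 (Hnrnp) and 0.47 (Ddx) against control, and 0.67 (Hnrnp) and 0.59 (Ddx) against unstimulated cells. Over all genes the calls between SMF and control cells then split into 931 higher and 1307 lower, against 1868 and 857. With gene TPM 6 were called higher with stimulation, and the Ddx median was -0.12 there and 0.94 for SMF against control cells. Without a filter the Ddx medians were 0.63 and 0.76 for SMF against control and unstimulated cells. With a filter at 5 FPKM or a pseudocount of 0.1 the latter was 1.21 or 1.19.

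With protein-coding transcripts alone the medians were 0.59 (Hnrnp) and 0.19 (Ddx) with stimulation, 1.08 (Ddx) for SMF against control, and 1.44 (Hnrnp) and 1.56 (Ddx) for SMF against unstimulated cells. The members called lower in the SMF comparisons were then 0 and 0, and Ddx39 turned to 0.19 with stimulation and 0.85 for SMF against unstimulated cells.

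With a replicate block, Ddx19b was the single call of 13 between control and unstimulated cells that was lost (unadjusted p = 0.0637 in limma). The block was fitted over all libraries, and the SMF pair shares a run, so it is not an adjustment for run. With the block 2 members were called lower between SMF and unstimulated cells, and it moved no other count of members by over 1.5 times. Deviations of same-numbered libraries correlated at 0.0963, 0.0301 and 0.0206, and the labels do not say that the numbers mark pairs.

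Leaving out each library, the members called higher ranged from 7 to 10, 10 to 24 and 20 to 30 in the 3 comparisons, and those called lower from 1 to 3, 0 to 1 and 0 to 2. The calls over all genes also changed with the library left out, and each such fit leaves 1 library in a group. The ranges of these counts therefore do not set the 3 families apart from other genes. With stimulation the medians ranged from 0.0495 to 0.45 (Hnrnp), -0.26 to 0.54 (Ddx) and -0.24 to 0.34 (Dhx). For SMF against control they ranged from 0.77 to 1.06, 0.77 to 0.92 and 0.44 to 1.43, and for SMF against unstimulated cells from 1.12 to 1.22, 0.80 to 1.20 and 0.94 to 1.28.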
